A study of Mus musculus with 2 samples.

Results

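Heat shock proteins and chaperones were followed through the leukocytes of the mouse adrenal gland. The genes were 10 members set by name, out of 32285 genes in the deposited tables: Hspa1a, Hspa1b, Dnajb1, Hsph1, Hsp90aa1, Hspa8, Hsp90ab1, Hspa5, Hspd1 and Hspe1. The rule goes by gene name and uses no measured value. Their levels were summed over every leukocyte class and macrophage subset that could be gated with canonical marker genes, none of which is a member, and the members were separated into inducible and constitutive ones by their known roles.

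The cells were live CD45+ cells, the leukocytes of the tissue, sorted from enzymatically digested adrenal glands of C57BL/6 mice aged 7 weeks and profiled with droplet single-cell RNA sequencing. The study asked how adrenal gland macrophages differ between the sexes. The groups were female mice and male mice, both untreated and of the same strain, with 1 library each. How many animals gave each library was not stated, so every interval below covers counting error only, and the variation among animals is unknown. Sex, the library and the sort and sequencing of that library cannot be told apart.

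Chaperones bind proteins that are not yet folded, or that have lost their fold, and release them for another attempt. Heat, oxidation and tissue handling release the transcription factor HSF1, which binds heat shock elements and strongly induces the inducible chaperones of the cytosol, while their constitutive relatives fold new proteins in every cell. The endoplasmic reticulum and the mitochondrion keep chaperones of their own, and those of the endoplasmic reticulum follow the unfolded protein response, which is prominent in cells that secrete. In tissue macrophages and other dissociated cells, heat shock genes are also known to be induced by warm enzymatic digestion.

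The female library held 3963 barcodes with a median of 3432 unique molecular identifiers (UMIs, each a captured RNA molecule), and the male library 2685 with a median of 2777. After filtering, 3817 female and 2502 male cells were kept, and 3312 (86.8%) and 2162 (86.4%) of them fell into 1 class each. The libraries shared 2 barcodes. A cell joined a class when at least 3 of its 10 markers were detected, 2 more than for any other class. The median cell held 4 to 8 of its own 10 markers in the classes compared. Of all UMIs in kept cells, the members took 0.373% in the female and 0.389% in the male library.

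Of 11 classes gated, 8 had at least 30 cells in each library. They comprised 815 female and 859 male macrophages (gated on C1qa, Mertk, Adgre1 and others), 198 and 127 monocytes, 77 and 60 dendritic cells, 47 and 50 neutrophils, 537 and 274 B cells, 699 and 377 T cells, 838 and 343 natural killer (NK) cells, and 40 and 45 endothelial cells. Each name stands for cells resembling that type by these markers. Of the dendritic cells, 46.8% and 35.0% met the gate with no marker to spare, against 7.48% and 14.1% of the macrophages. Transcripts of 10 adrenal endocrine genes such as Star and Cyp11a1 summed to 262 CPM (UMIs per 1000000 UMIs of the class) in the macrophages of both libraries, and to 2528 and 690 CPM in female and male endothelial cells. Their part in the member levels was not tested.

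The upstream sequences of 7 of the 10 members matched the promoter table of RefSeq (build GRCm38.p6), by symbol. Hsp90aa1, Hsp90ab1 and Hspa8 had no entry. The inducible neighbours Hspa1a and Hspa1b are shown as close copies that had like patterns of levels, Hsph1 and Dnajb1 as the other inducible members, Hspa5 for the endoplasmic reticulum, and Hspe1 because a start of Hspd1 lies at the far end of the same stretch, on the other strand. Capitals mark letters that match a heat shock element (GAANNTTC or TTCNNGAA, searched on both strands; each reads the same on both) or, in Hspa5, the endoplasmic reticulum stress response element (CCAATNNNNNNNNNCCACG). Every sequence runs 5′ to 3′ on the strand of its gene and ends at the base before a start listed by RefSeq. The gene spans given further on are of another annotation and can begin elsewhere: those of Hspa5, Hsph1 and Hspe1 begin inside the sequences shown, and the marked letters of Hspa5 and Hsph1 lie within these spans.
Hspa1a: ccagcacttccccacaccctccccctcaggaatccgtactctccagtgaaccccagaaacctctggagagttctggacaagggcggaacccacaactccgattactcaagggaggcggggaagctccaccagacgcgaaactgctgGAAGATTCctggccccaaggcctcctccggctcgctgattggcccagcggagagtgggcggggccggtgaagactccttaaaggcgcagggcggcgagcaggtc
Hspa1b: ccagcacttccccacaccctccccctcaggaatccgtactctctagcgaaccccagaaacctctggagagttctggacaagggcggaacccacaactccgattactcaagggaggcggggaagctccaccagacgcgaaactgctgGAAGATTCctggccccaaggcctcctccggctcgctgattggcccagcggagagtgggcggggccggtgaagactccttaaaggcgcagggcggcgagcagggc
Dnajb1: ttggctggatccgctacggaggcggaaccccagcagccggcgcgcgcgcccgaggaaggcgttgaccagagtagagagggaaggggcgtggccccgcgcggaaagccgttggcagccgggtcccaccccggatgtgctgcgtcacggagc
Hsph1: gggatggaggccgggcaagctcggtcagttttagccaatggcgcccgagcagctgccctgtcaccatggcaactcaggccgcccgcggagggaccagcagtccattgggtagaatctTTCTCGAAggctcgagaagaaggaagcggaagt
Hspa5: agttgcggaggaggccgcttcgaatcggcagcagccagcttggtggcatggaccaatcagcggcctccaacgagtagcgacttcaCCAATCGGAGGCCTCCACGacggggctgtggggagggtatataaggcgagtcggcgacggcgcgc
Hspe1: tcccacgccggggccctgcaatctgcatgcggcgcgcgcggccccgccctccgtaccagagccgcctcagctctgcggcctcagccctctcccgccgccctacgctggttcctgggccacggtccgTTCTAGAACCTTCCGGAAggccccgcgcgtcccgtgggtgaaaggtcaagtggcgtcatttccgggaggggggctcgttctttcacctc

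The Hspa1a window lies at chr17:34972157-34972406 and the Hspa1b window at chr17:34959239-34959488, both on the minus strand. They were identical at 247 of 250 bases, and the differences, counted from 1 at the 5′ end with the base of Hspa1a written first, were C44T, T47C and T249G. In both, the match GAAGATTC began 104 bases before the start. The Dnajb1 window at chr8:83608025-83608174, plus strand, held neither heat shock form. In Hsph1 (chr5:149636337-149636486, minus strand) the match TTCTCGAA began 33 bases before the outer and 54 before the inner of 2 listed starts. Dnajb1 also had 2 listed starts, and neither window held a heat shock form.

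For Hspa5 (chr2:34771940-34772089, plus strand) the stress response element began 65 bases before the start. The stretch before Hspe1 (chr1:55087933-55088147, shown on the plus strand) lies between the start of Hspe1 and the inner of 2 listed starts of Hspd1, at base 55087932, and so inside the Hspd1 gene as annotated. The window of the outer Hspd1 start, at base 55088243, had no heat shock match. The stretch held adjoining matches that began 89 bases before the start of Hspe1 and overlapped, so that their letters hold a 3-unit heat shock element (TTCNNGAANNTTC, or GAANNTTCNNGAA on the other strand). Among 32851 mouse promoter windows of 250 bases, 12.8% held either short heat shock form, 0.466% a 3-unit form and 0.113% the stress response element. A match describes letters only, and its absence says only that the letters are not in that window.

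Hspa1a (ENSMUSG00000091971) and Hspa1b (ENSMUSG00000090877) encode nearly the same stress-inducible Hsp70 and lie 9951 bases apart on chromosome 17, at chr17:34969190-34972156 and chr17:34956436-34959238 (GRCm38, minus strand). The assay reads the 3′ end of each transcript. Of 55-base stretches, 57.5% of the Hspa1a transcript recurred in Hspa1b, but none of 446 did in the last 500 bases, and the last shared stretch ended 786 bases before the end of Hspa1a and 619 before that of Hspa1b. The gene Gm20481 overlaps Hspa1a on the opposite strand. The level of Hspe1 is less certain than that of the other members, since its 3′ end is not unique among transcripts.

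Hspa1a and Hspa1b were higher in macrophages than in the sum of the other gated cells. The level of Hspa1a was 24.1 CPM (80 UMIs) in female and 38.4 CPM (113 UMIs) in male macrophages. Over all other gated cells it was 4.07 and 14.2 CPM, so the macrophage level was 5.93-fold (95% interval 4.04 to 8.80) higher in the female and 2.70-fold (1.99 to 3.67) higher in the male library. Hspa1b had 41.6 CPM (138 UMIs) in female and 60.1 CPM (177 UMIs) in male macrophages, against 10.6 and 35.8 CPM in the other cells, with ratios of 3.92 (3.04 to 5.08) and 1.68 (1.36 to 2.08).

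A gene was called when the ratio passed 1.5-fold in the same direction in both libraries, among genes for which the pooled rate gave at least 20 expected UMIs on either side. By this rule 3 of 10 members were higher in macrophages and none lower, the third being Hspa5. Of all genes kept in that comparison, 35.6% were called and 16.7% were called upwards, so 3 of 10 lies near the background. A mitochondrial ceiling of 1.2%, the value the study describes, kept 327 female and 359 male barcodes when read as a percent of UMIs. It may be meant on another scale, since the study reports far more cells left in each sample after its filters. This setting is therefore not taken as the study's own filter. Under it the Hspa1a ratios turned to 0.616 and 0.558, from 1 and 8 macrophage UMIs, and the male Hspa1b ratio was 1.02.

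The order of monocytes, dendritic cells and macrophages was not the same in both libraries. In female monocytes Hspa1a had 23.0 CPM and Hspa1b 36.1 CPM, and in male monocytes 56.1 and 103 CPM. Female dendritic cells had 12.0 CPM of Hspa1a (5 UMIs) and 19.1 CPM of Hspa1b (8 UMIs), and male dendritic cells 90.0 CPM (31 UMIs) and 122 CPM (42 UMIs). The summed pair stood at 65.7 CPM (57.3 to 75.0) in female macrophages, 59.1 CPM (41.4 to 81.8) in female monocytes and 31.1 CPM (16.6 to 53.2) in female dendritic cells, so that the female dendritic cells lay below the macrophages. For Hspa1b, male dendritic cells and monocytes both stood above male macrophages without overlap of the intervals.

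B, T and NK cells held few UMIs of Hspa1a. Hspa1a stood at 1.06 and 9.69 CPM in female and male B cells (2 and 7 UMIs), at 2.56 and 3.25 CPM in T cells and at 3.38 and 2.15 CPM in NK cells. It was called lower than in the other gated cells in T cells, with ratios of 0.239 in the female and 0.118 in the male library, and in NK cells with 0.303 and 0.0737. For the T cell comparison the female ratio turned to 1.24 under the 1.2% ceiling, on 1 UMI.

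Hspa1b was called lower in B cells (0.183 and 0.261) and in NK cells (0.422 and 0.337). In female and male T cells it had 10.2 and 33.1 CPM, and it was not called there. Without the cell with the most Hspa1b UMIs in each library these levels were 8.31 and 16.3 CPM, from 26 and 25 UMIs. Neutrophils had no UMI of Hspa1a in either library, which allows up to 35.8 CPM in the female and 33.7 CPM in the male library at a floor of 3 counts, and a single male UMI of Hspa1b. The depth of the neutrophils therefore could not separate them from the macrophage level of Hspa1a in females.

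Few cells carried these UMIs. With every cell drawn down to 1000 UMIs, Hspa1a was detected in 13 of 747 female macrophages (1.74%, Clopper-Pearson interval 0.930 to 2.96%) and in 26 of 724 male macrophages (3.59%, 2.36 to 5.22%). Without the draw the shares were 6.75% and 9.20%, at median depths of 3503 and 2522 UMIs. In T cells, at 3928 and 3763 UMIs, the drawn shares were 0.432% and 0.271% and without the draw 7 of 699 and 5 of 377 cells held a UMI. No class in the sort is known to lack these genes altogether, so no class could serve as a measure of free RNA.

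Dnajb1, a J-domain partner that hands substrates to Hsp70, did not follow the Hspa1 pair. Its level was 35.3 and 38.4 CPM in female and male macrophages, 31.8 and 40.1 CPM in B cells, 45.4 and 74.0 CPM in T cells and 42.3 and 64.9 CPM in NK cells. From the lowest to the highest of the 8 classes it varied 1.89-fold in the female and 1.93-fold in the male library, where Hspa1b varied 11.2-fold and 9.79-fold even without the neutrophils. The Dnajb1 gene lies at chr8:83608193-83612653.

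Hsph1 encodes a nucleotide exchange factor of Hsp70, and lies at chr5:149614287-149636376. It had 44.6 and 28.5 CPM in female and male macrophages, 48.9 and 57.8 CPM in T cells and 46.6 and 66.0 CPM in NK cells. No UMI of it was seen in neutrophils. Relative to the other gated cells, macrophages showed 1.11-fold in the female and 0.530-fold in the male library, so that the direction of the ratio differed between libraries.

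Hsp90aa1 is the inducible cytosolic Hsp90, a chaperone of kinases and steroid receptors, at chr12:110690605-110702728. It was highest in NK cells, with 379 CPM in the female and 382 CPM in the male library. In the male library the interval of NK cells overlapped that of T cells. The level was 340 and 262 CPM in macrophages, 332 and 349 CPM in T cells and 274 and 331 CPM in B cells. Monocytes held 246 and 294 CPM and dendritic cells 325 and 282 CPM. Without neutrophils the classes spanned 1.54-fold and 1.91-fold. Among the inducible members the strong class pattern was thus that of Hspa1a and Hspa1b.

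**Figure D1:**
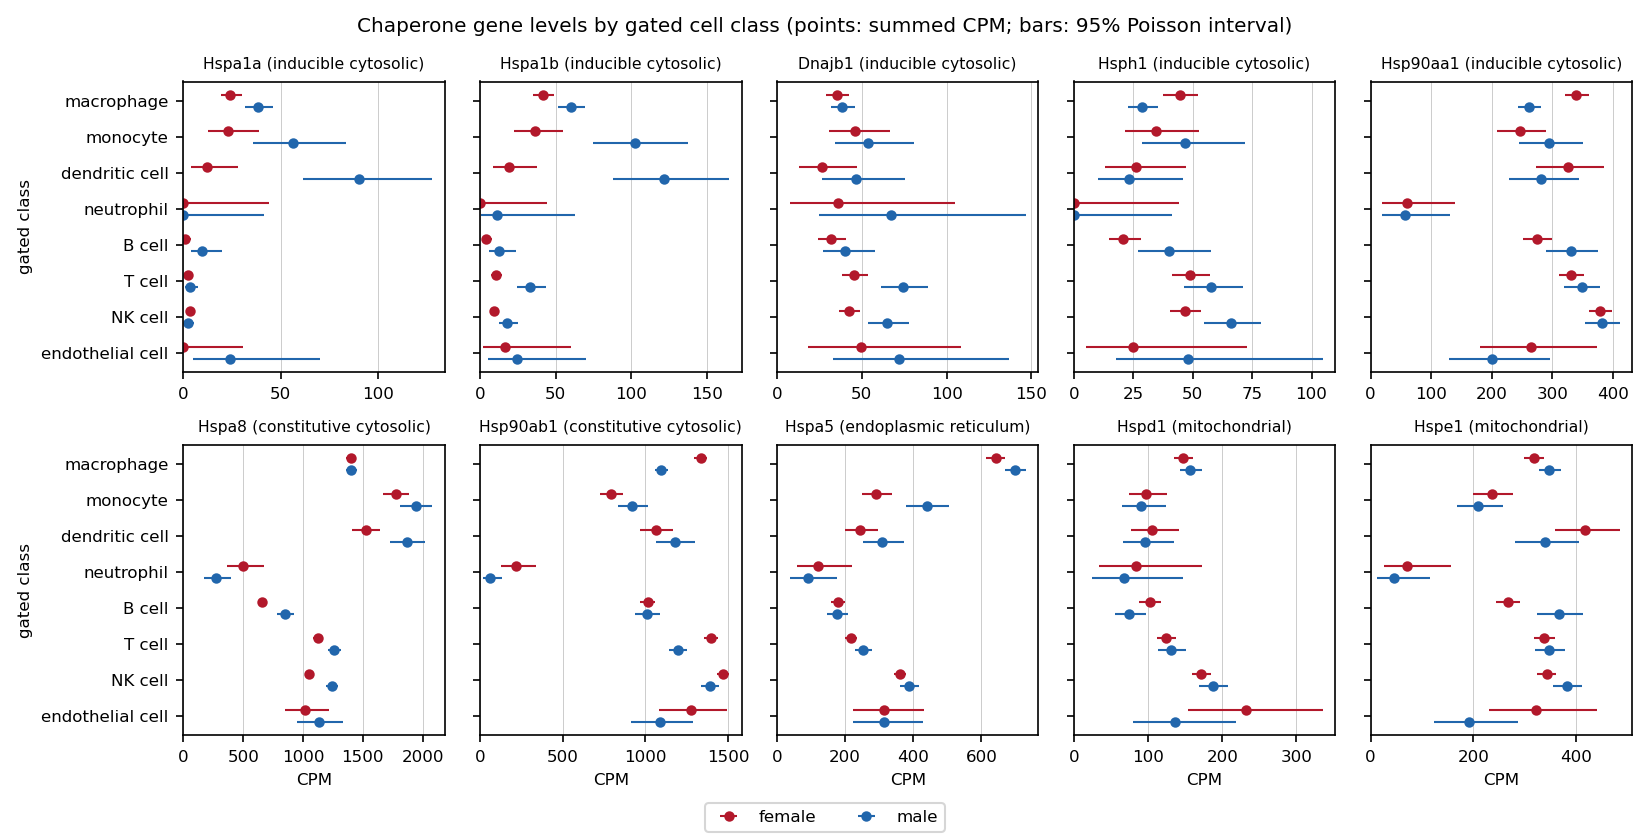
Level of each member, in CPM on a linear axis scaled per member, in each of the 8 compared classes. Each library has 1 point (female red, male blue), with bars for exact Poisson 95% intervals. Leaving out the neutrophils, Hspa1b varies 11.2-fold and 9.79-fold between classes, and Hspa5 has its highest point in macrophages in both libraries.

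With the neutrophils left out, the constitutive cytosolic members varied less between classes than Hspa1b. Over all 8 classes male Hsp90ab1 varied 24.7-fold, against 10.9-fold for male Hspa1b. Without neutrophils Hspa8 spanned 2.71-fold in the female and 2.29-fold in the male library, against 2.36-fold and 2.84-fold for Hsph1. Hspa8, the constitutive Hsp70 (Hsc70, chr9:40800984-40810087), was highest in monocytes, at 1777 CPM in the female and 1945 CPM in the male library. Dendritic cells followed with 1523 and 1870 CPM, macrophages with 1402 and 1405 CPM, T cells with 1123 and 1262 CPM and NK cells with 1051 and 1239 CPM. B cells held 656 and 851 CPM and neutrophils 501.5 and 269.8 CPM.

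Neighbours in this order that did not differ beyond their intervals were monocytes and dendritic cells in males, dendritic cells and macrophages in females, T and NK cells in males, NK and endothelial cells in both libraries, and B cells and neutrophils in females. Monocytes exceeded the other gated cells 1.60-fold (1.5 to 1.70) and 1.52-fold (1.41 to 1.63), which made Hspa8 the only one of 7 members kept there to be called (background 34.2%, upwards 15.5%). The male ratio was 1.2 under a stricter gate. In B cells Hspa8 was called lower, at 0.540 and 0.624, and dividing by the median ratio of all genes moved these to 0.694 and 0.805, outside the call.

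Hsp90ab1, the constitutive Hsp90 (chr17:45567775-45573271), was highest in NK cells with 1469 and 1389 CPM. In the female library the interval of NK cells overlapped that of T cells. T cells held 1395 and 1195 CPM, macrophages 1333 and 1095 CPM, B cells 1014 and 1009 CPM, dendritic cells 1064 and 1176 CPM and monocytes 793 and 920 CPM. In monocytes the ratio to the other gated cells was 0.597 in the female but 0.787 in the male library, which was no call. Without neutrophils the span over classes was 1.85-fold and 1.51-fold. Drawn to 1000 UMIs, 64.9% of female and 56.8% of male macrophages held a UMI of it, and 60.5% of NK cells in both libraries.

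In neutrophils all 5 members kept by the filter were low. Hsp90aa1 stood at 0.179 of the other gated cells in both libraries, Hsp90ab1 at 0.164 and 0.0481, Hspa8 at 0.439 and 0.203, Hspa5 at 0.329 and 0.198, and Hspe1 at 0.223 and 0.129. Of all genes kept, 69.8% were called in neutrophils, 57.6% downwards, and the median of all genes was shifted by -1.22 and -1.15 on the log2 scale, so low values were the rule in this class. Divided by that median ratio, the female Hspa8 ratio was 1.02 and the female Hspa5 ratio 0.766, both outside the call. The male ratios of these genes were 0.449 and 0.439. Hsp90aa1 then stood at 0.416 and 0.396, Hsp90ab1 at 0.382 and 0.107 and Hspe1 at 0.518 and 0.286.

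Hspa5 encodes BiP, the Hsp70 of the endoplasmic reticulum and the sensor-binding chaperone of the unfolded protein response (chr2:34771970-34777547). It was higher in macrophages than in the other 7 classes compared, in both libraries, with no overlap of its interval with that of the next class. The levels were 642 CPM in female and 700 CPM in male macrophages, against 361 and 388 CPM in NK cells, 290.5 and 439 CPM in monocytes, 315 and 313 CPM in endothelial cells, 244 and 308 CPM in dendritic cells, 217 and 253 CPM in T cells and 178 and 176 CPM in B cells.

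Against all other gated cells (274 and 308 CPM), macrophages were 2.34-fold (2.22 to 2.48) and 2.27-fold (2.13 to 2.43) higher, and over the alternatives tried the ratio ran from 2.00 to 2.56 and from 1.97 to 2.76. In drawn cells 41.2% of female and 41.0% of male macrophages held a UMI of Hspa5 (70.9% and 65.8% without the draw), compared with 16.6% and 19.8% of T cells (45.4% and 45.9%). It was called lower in T cells, at 0.536 and 0.511, and in B cells, at 0.456 and 0.369. The male B cell ratio was 0.661 under a looser gate. Under the 1.2% ceiling the female B cell ratio was 0.862, which ended the call, and the male 0.0521.

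Hspd1 (Hsp60, chr1:55077835-55088243) and Hspe1 (Hsp10, chr1:55088132-55091307) form the folding chamber of the mitochondrial matrix and its lid. Hspd1 had 147 and 157 CPM in female and male macrophages, 171 and 187 CPM in NK cells, 124 and 131 CPM in T cells and 102 and 74.7 CPM in B cells. Hspe1 had 318 and 348 CPM in macrophages, 343 and 384 CPM in NK cells, 338 and 349 CPM in T cells and 267 and 367 CPM in B cells. Apart from the low Hspe1 of neutrophils, neither gene was called in any class. The genes overlap at their 5′ ends on opposite strands, away from the 3′ ends that the assay reads.

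Altogether 16 of 62 pairs of member and class that passed the filter were called against the other gated cells. In addition to those above, T cells had 2 of 10 called (background 26.7%, downwards 21.2%), NK cells 2 of 10 (28.6%, downwards 16.5%), B cells 3 of 9 (33.5%, downwards 28.5%), dendritic cells none of 6 (32.2%) and endothelial cells none of 5 (37.8%). The share of members called was below that of all genes in 7 of 8 classes, the neutrophils being the exception.

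Other genes of the same pathways were read as lists. Of 17 chaperones and unfolded protein response genes of the endoplasmic reticulum, 11 were higher in macrophages (16.7% of all genes were) and none lower, with a median ratio (as the geometric mean of both libraries) of 1.71 against 0.921 for all genes. Sdf2l1, a BiP cofactor, had 3.02 in the female and 3.31 in the male library, the lectin chaperone Calr 2.04 and 2.01, and the disulfide isomerase Pdia6 1.96 and 2.14. In T cells 8 of the 17 were lower (21.2% of all genes; median 0.642 against 0.936), among them the transcription factor Xbp1 with 0.393 and 0.392. B cells had 9 of 17 lower (28.5% of all genes; 0.584 against 0.774), and NK cells none called.

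The cytosolic lists gave few calls. No subunit of the TRiC chaperonin, which folds actin and tubulin, was called in macrophages, dendritic cells, T cells or NK cells, of 8 kept. Of the same 8, Cct3 was lower in monocytes (0.410 and 0.420) and Cct8 in B cells (0.666 and 0.501). In the heat shock response list Bag3, a co-chaperone induced with Hsp70, was higher in macrophages (2.17 and 2.81) and the J-domain gene Dnajb4 lower (0.544 and 0.636), of 8 kept. NK cells, also with 8 kept, had the J-domain genes Dnaja1 (1.57 and 1.57) and Dnajb4 (2.06 and 2.79) higher and Bag3 lower (0.431 and 0.384). In T cells 2 of 6 were lower (21.2% of all genes), Dnajb4 (0.638 and 0.446) and Hspa4l (0.610 and 0.547), and in monocytes, where only 3 were kept and 34.2% of all genes were called either way, Dnaja1 (0.648 and 0.623) and Chordc1 (0.578 and 0.542). These counts lie near the background or rest on few genes. Among the co-chaperones Dnajc7 was higher in B cells (4.35 and 3.57) and Fkbp5, a glucocorticoid-induced partner of Hsp90, lower (0.15 and 0.226). None of 6 further mitochondrial chaperones was called in macrophages, T cells or NK cells, where all 6 passed the filter.

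Macrophages were next divided into 4 subsets. The Lyve1-high subset (gated on Lyve1, Folr2, Timd4 and others) held 62 female and 122 male cells, the Aldh1a2-high subset (Aldh1a2, Retnla, Ear2 and others) 32 and 52, and the remaining macrophages were split by their share of MHC class II UMIs at 1% into 176 and 30 low and 545 and 655 high cells. The low cells made up 21.6% of female and 3.49% of male macrophages.

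Lyve1-high macrophages held less Hsp90ab1 and Hspe1. Hsp90ab1 had 853 CPM in the female and 696.5 CPM in the male library, against 1359 and 1141 CPM in the other macrophages, with ratios of 0.628 (0.529 to 0.740) and 0.611 (0.528 to 0.702). Hspe1 had 123 and 133 CPM against 328 and 373 CPM, with ratios of 0.374 (0.230 to 0.575) and 0.356 (0.253 to 0.488). These were 2 of 6 members kept, where 29.8% of all genes were called, 17.8% downwards. With a mitochondrial ceiling of 5% the Hsp90ab1 ratios were 0.75 and 0.741, which ended that call, and the subset was also shallow, with medians of 2206 and 2009 UMIs. Its median mitochondrial share was 5.99% and 6.29%, against 1.90% to 3.41% in the other subsets, and the part of this in the result was not tested.

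No member was called in the other subsets, of 6 kept in Aldh1a2-high (background 21.1%), 5 in MHC class II low (3.69%) and 9 in MHC class II high cells (8.25%). Hspa5 had 561 and 564 CPM in Lyve1-high, 669 and 530 CPM in Aldh1a2-high, 647 and 501 CPM in MHC class II low and 645 and 743 CPM in MHC class II high cells. In males the intervals of Lyve1-high (482 to 655) and MHC class II high cells (709 to 779) did not overlap. Hspa1b had 58.5 and 99.5 CPM in Lyve1-high, 18.8 and 88.3 CPM in Aldh1a2-high, 55.2 and 122 CPM in MHC class II low and 37.3 and 49.7 CPM in MHC class II high cells. Several of these rest on few molecules, such as 3 female UMIs in Aldh1a2-high and 10 male UMIs in MHC class II low cells.

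**Figure D2:**
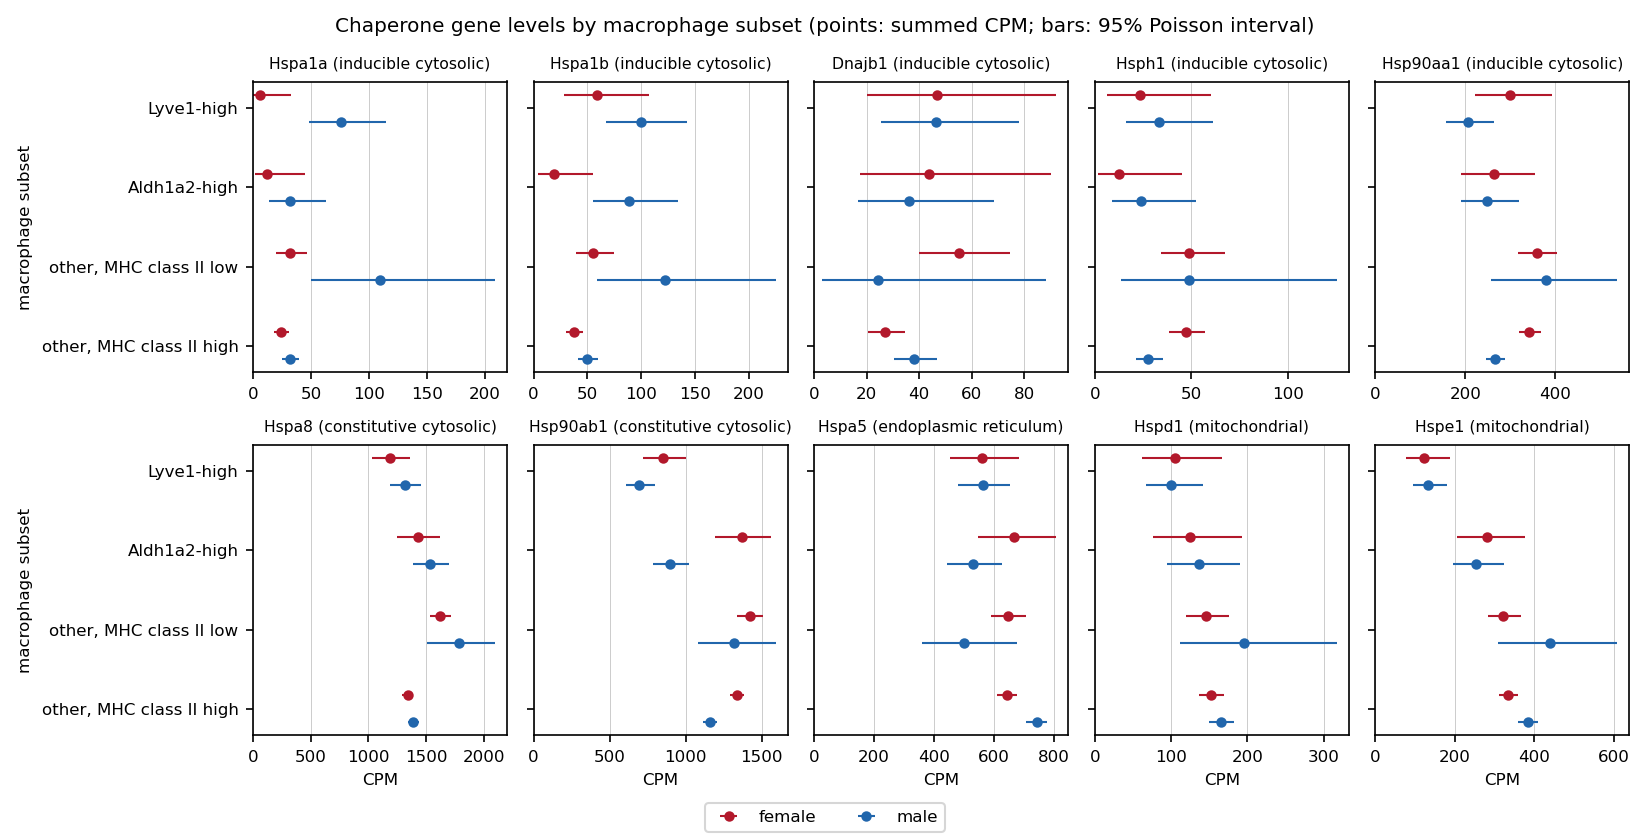
Level of each member, in CPM on a linear axis scaled per member, in the 4 macrophage subsets. Each library has 1 point (female red, male blue), with bars for exact Poisson 95% intervals. Hsp90ab1 and Hspe1 lie lowest in Lyve1-high cells in both libraries, and the intervals of Hspa1a and Hspa1b are wide.

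The female and male libraries were then compared within each class. Hspa1b was lower in the female library in 8 of 8 classes, with an interval below 1 in 6 of them and a median ratio of 0.330. In neutrophils (0 and 1 UMI) and endothelial cells (2 and 3 UMIs) the difference was not detectable at this depth. In dendritic cells the female-to-male ratio was 0.157 (0.0636 to 0.338), in T cells 0.309 (0.192 to 0.490), in monocytes 0.351 (0.201 to 0.599), in NK cells 0.519 (0.317 to 0.853) and in macrophages 0.692 (0.550 to 0.870). The female and male libraries gave 8 and 42 UMIs in dendritic cells and 32 and 51 in T cells. The dendritic cell ratio was 0.337 under a looser gate and 0.0454 under the 1.2% ceiling. A single male T cell carried 9 of the 14 Hspa1b UMIs of the drawn male T cells, and without the cell with most UMIs in each library the T cell ratio was 0.511.

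Hspa1a had a macrophage ratio of 0.629 (0.466 to 0.844), called lower in the female library. Without the 5% of cells with the most UMIs the ratio was 0.739, which ended the call, and under the 1.2% ceiling it was 0.192. In the other classes the gene had too few UMIs for the filter. Its ratio was 0.133 (0.0403 to 0.345) in dendritic cells, from 5 and 31 UMIs, and 0.410 in monocytes, from 14 and 24. Of the 8 classes, Hspa1a was lower in the female library in 6 and undefined in neutrophils. In NK cells it was higher, at 1.58, from 3.38 and 2.15 CPM.

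Dnajb1 was also lower in the female library in 8 of 8 classes, with a median ratio of 0.670, and its interval lay below 1 in 2 of them. These were T cells, with 142 and 114 UMIs and a ratio of 0.613 (0.476 to 0.791), and NK cells, with 175 and 121 UMIs and 0.652 (0.514 to 0.828). In macrophages the ratio was 0.919 (0.704 to 1.2). The T cell ratio turned to 1.13 and the NK cell ratio to 1.04 under the 1.2% ceiling, on few UMIs, and among T cells of up to 2000 UMIs it was 1.42.

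Hsph1 went the other way in macrophages, where 148 female and 84 male UMIs gave 1.56 (1.19 to 2.07), and was lower in female NK cells at 0.707 (0.561 to 0.894). By depth the macrophage ratio was 0.940 (0.281 to 2.86) in cells of up to 2000 UMIs and 1.06 (0.544 to 2.10) in those above 2000 and up to 4000. In those above 4000 it was 1.75 (1.26 to 2.45). These intervals overlap, and a difference between the depth ranges was not tested. Under the 1.2% ceiling the macrophage ratio was 0.342. Hsp90aa1 was 1.30-fold (1.18 to 1.42) higher in female macrophages, under the fold that makes a call, and was on either side of 1 in 4 classes each.

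The constitutive members stayed within 1.5-fold between the libraries in every class except the neutrophils. Hspa8 had a macrophage ratio of 0.998 (0.956 to 1.04), and stood below 1 in 7 of 8 classes, at 0.771 (0.699 to 0.850) in B cells, 0.848 (0.806 to 0.893) in NK cells and 0.890 (0.842 to 0.941) in T cells. The exception was the neutrophils, where 42 and 24 UMIs gave 1.86 (1.10 to 3.21). There Hsp90ab1 had 18 and 5 UMIs (215 and 56.2 CPM) and a ratio of 3.82 (1.37 to 13.2), too few to pass the filter. Hsp90ab1 was above 1 in 6 of 8 classes, at 1.22 (1.16 to 1.27) in macrophages and 1.17 (1.10 to 1.23) in T cells. With many UMIs behind them these intervals are narrow, but they cover counting error only.

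For the organelle members, Hspa5 was lower in female monocytes, with 177 and 188 UMIs and a ratio of 0.662 (0.536 to 0.817). A stricter gate moved it to 0.786, outside the call. In macrophages the Hspa5 ratio was 0.917 (0.863 to 0.975) and in NK cells the levels were 361 and 388 CPM. In neutrophils Hspe1 stood at 71.6 and 45.0 CPM, with too few UMIs to pass the filter. Among classes that passed it, Hspd1 and Hspe1 passed the fold in endothelial cells alone. The ratios there were 1.70 (0.90 to 3.32) and 1.68 (0.985 to 2.92), and both intervals include 1. Upward in the female library the background there was 9.40%. Without the 5% of endothelial cells with the most UMIs these ratios turned to 0.905 and 0.654.

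Counted together, 12 of 57 pairs of member and class with enough UMIs passed 1.5-fold between the libraries, 4 higher and 8 lower in the female. By class the counts were 2 of 10 in macrophages (9.68% of all genes kept passed either way), 2 of 8 in monocytes (11.7%), 1 of 7 in dendritic cells (13.5%), 1 of 1 in neutrophils (26.0%), none of 7 in B cells (8.20%), 2 of 9 in T cells (6.54%), 2 of 9 in NK cells (6.13%) and 2 of 6 in endothelial cells (20.1%). In the direction of lower in the female library the backgrounds were 6.18% in macrophages, 7.15% in monocytes, 8.98% in dendritic cells, 3.49% in T cells and 3.96% in NK cells, and in the direction of higher they were 3.50% in macrophages and 12.9% in neutrophils. In T and NK cells these were the same 2 members, Hspa1b and Dnajb1.

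Within macrophage subsets the comparison had less depth. In MHC class II high cells, the largest subset in both libraries, Hspa1a had 23.8 and 31.6 CPM (ratio 0.754), Hspa1b 37.3 and 49.7 CPM (0.75), and Hsph1 47.2 and 27.7 CPM with a ratio of 1.70 (1.24 to 2.36), the 1 call among 10 members kept (background 9.02%, upwards 3.51%). Hsp90ab1 was called higher in female Aldh1a2-high cells at 1.52 (1.26 to 1.84), 1 of 6 kept (17.3%, upwards 5.03%). Of 5 members kept in Lyve1-high (16.2%) and 5 in MHC class II low cells (25.7%) none was called. Lyve1-high cells held 1 female and 23 male UMIs of Hspa1a.

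Genes induced rapidly by handling, the immediate early genes, were read in the same cells. The 12 genes summed to 1435 CPM in female and 1806 CPM in male macrophages, 4602 and 5264 CPM in monocytes, 2592 and 3839 CPM in dendritic cells, 1109 and 1262 CPM in T cells, 1394 and 1729 CPM in NK cells and 1970 and 2361 CPM in B cells. Neutrophils, which had no UMI of Hspa1a, held the most of the classes compared, at 30808 and 39552 CPM. Endothelial cells held 1434 and 1540 CPM. The sum was thus higher in the male library in each of these classes, as Hspa1b was. In macrophages Fos (0.539), Fosb (0.515) and Egr1 (0.632) passed 1.5-fold lower in the female library, 3 of 12 against 6.18% of all genes, and the list median was 0.770 against 0.956 for all genes. In MHC class II high macrophages the sums were 1200 and 1224 CPM and the list median 1.03 against 0.965, with Ier3 (0.563) lower and Nr4a1 (2.20) higher of 11 kept. The sums were 3320 and 3347 CPM in Lyve1-high and 2690 and 5113 CPM in Aldh1a2-high cells, subsets that made up 7.61% and 3.93% of female and 14.2% and 6.05% of male macrophages. The part of these genes and of the subset mix in the Hspa1 difference was not tested.

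From the other lists, Fkbp5 was higher in the female library, at 2.52 (2.10 to 3.03) in macrophages, 1.69 in T cells and 1.83 in NK cells. It was the 1 gene called of 13 co-chaperones in each of these classes. There 9.68%, 6.54% and 6.13% of all genes passed either way. In female macrophages 1 of 9 heat shock response genes kept, Bag3 (0.559), was lower. So was 1 of 17 endoplasmic reticulum genes, the unfolded protein response gene Herpud1 (0.603), against 6.18% of all genes. In Aldh1a2-high cells 4 of 13 endoplasmic reticulum genes were higher in the female library and none lower (5.03% of all genes were higher). Among them were Pdia4 (2.29), Manf (2.17) and Xbp1 (1.76). In MHC class II low cells 2 of 5 were higher and 1 lower (25.7% either way).

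Levels within macrophages moved with the number of UMIs in a cell. From cells of up to 2000 UMIs, through those of up to 4000, to those of more, Hsp90ab1 went from 802 through 950 to 1525 CPM in the female and from 679 through 746 to 1314 CPM in the male library. Hsp90aa1 went from 152 through 222 to 402 CPM in females and from 165 through 171 to 316 CPM in males. Hspa8 went from 973 through 1165 to 1532 CPM and from 1063 through 1283 to 1525 CPM.

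Hspa5 had no such order, at 646, 590.5 and 659 CPM in the female and 694, 527 and 764 CPM in the male library. The summed Hspa1 pair stood at 26.6, 58.0 and 72.9 CPM in females and at 77.6, 66.8 and 115 CPM in males, so the male sum was the higher in each depth range. Hspa1b alone had 33.5 and 32.6 CPM in cells above 2000 and up to 4000 UMIs, a ratio of 1.03 (0.560 to 1.90). Female macrophages were deeper, with medians of 3503 against 2522 UMIs. Within the depth ranges the female-to-male ratio of Hsp90aa1 was 0.922, 1.30 and 1.27, in the order of depth.

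**Figure D3:**
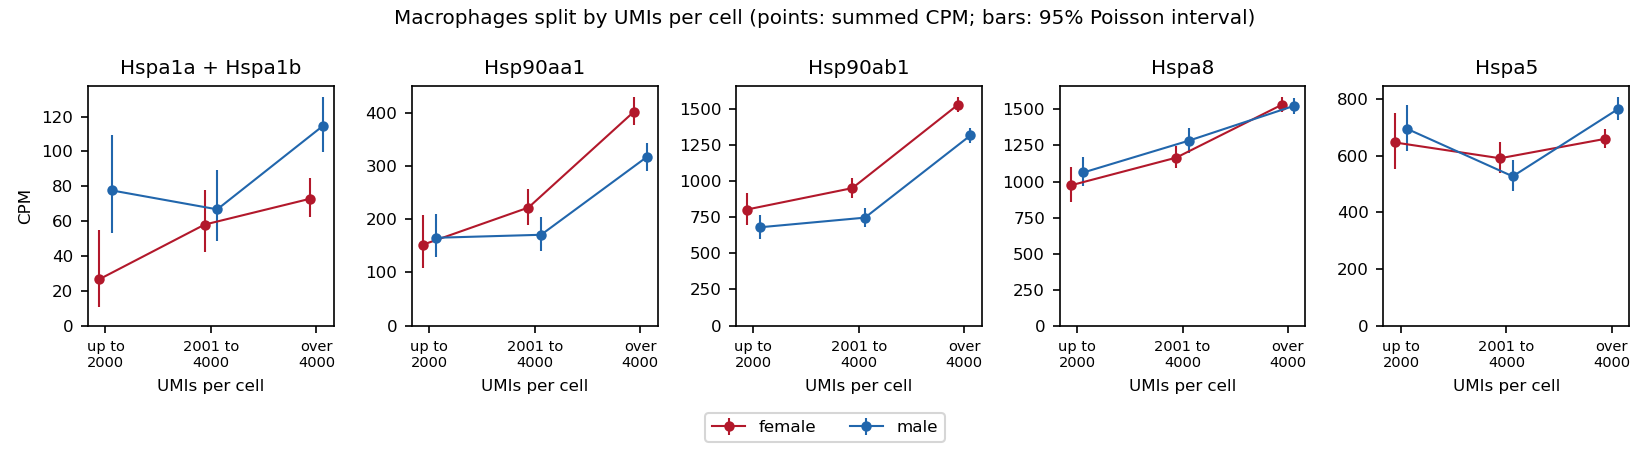
Level of members in macrophages, in CPM, in cells of up to 2000 UMIs, of more than 2000 up to 4000, and of more than 4000, for the female (red) and male (blue) library, with bars for exact Poisson 95% intervals. Hsp90ab1, Hsp90aa1 and Hspa8 are highest in the deepest cells of both libraries, and Hspa5 is not ordered by depth.

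In single macrophages drawn to 1000 UMIs, Hspa1a and Hspa1b were at times found in the same cell. Of 17 female macrophages with a UMI of Hspa1b, 4 (23.5%, 6.81 to 49.9%) also had one of Hspa1a, and of 23 male macrophages 3 (13.0%, 2.78 to 33.6%), whereas without Hspa1b the shares were 1.23% and 3.28%. The male interval includes its share without Hspa1b. The variance over the mean of the counts was 1.80 and 1.89 for Hspa1b and 1.25 and 1.17 for Hspa1a, where random sampling alone gives a value near 1, and no macrophage held more than 5 UMIs of either gene or 7 of both together.

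The 26 female and 46 male macrophages with a UMI of either gene were set beside the other drawn macrophages of their library. They held more Hspa8, at 1.80-fold (1.36 to 2.35) and 1.53-fold (1.22 to 1.91). In other classes, with 4 to 12 such cells each, the Hspa8 ratio was 0.819 and 1.99 in monocytes. It was 1.09 and 0.985 in T cells and 0.797 and 1.29 in NK cells. Of these only the interval of male monocytes (1.40 to 2.76) lay above 1. In the macrophages Hsp90aa1 stood at 2.51 (1.46 to 4.07) and 1.56 (0.885 to 2.57). The other inducible members had few UMIs there, with 0 female and 5 male UMIs of Dnajb1 and 3 and 0 of Hsph1, and no direction common to both libraries. Hsp90ab1 stood at 1.73 (1.28 to 2.29) in the female and 0.927 (0.653 to 1.28) in the male library.

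Hspa5 was not raised in these cells, at 0.823 and 0.644 (0.384 to 1.02). The immediate early list was, at 1.47-fold (1.11 to 1.93) and 2.04-fold (1.72 to 2.41), and the heat shock response list without the members stood at 0.683 and 1.01. These cells are not replicates, and the values describe these 2 libraries. Hspa8 also rose with the number of UMIs in a macrophage, as given above. The part of depth before the draw and of the subset mix in these ratios was not tested.

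**Figure D4:**
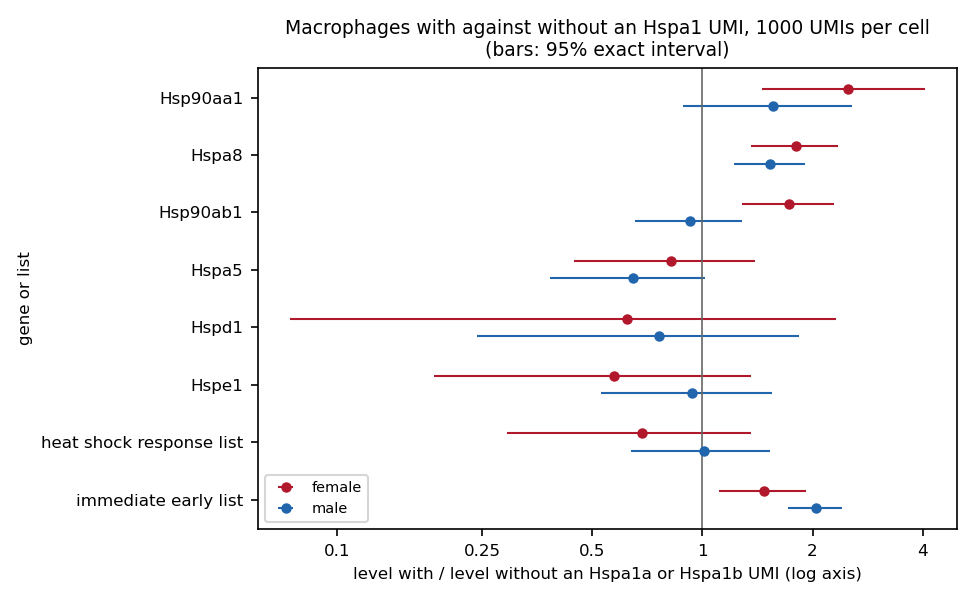
Ratio of levels in macrophages with a UMI of Hspa1a or Hspa1b to those without, on a log axis, after drawing each cell to 1000 UMIs, for members with a UMI in every group and for 2 gene lists, with bars for exact 95% intervals (female red, male blue). Hspa8 and the immediate early list lie right of 1 in both libraries, and Hspa5, Hspd1 and Hspe1 do not.

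Over the 16 points given by 8 classes and 2 libraries, the members fell into unlike patterns. Pearson correlations of log2(CPM + 10), which share library and depth within each 8 points and are given as descriptions, were 0.89 between Hspa1a and Hspa1b, 0.94 between Hsp90aa1 and Hsp90ab1 and 0.96 between Hsp90aa1 and Hspe1. Those of Dnajb1 with the other members ran from -0.24 to 0.19. Hspd1 and Hspe1 had 0.55.

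Of 2998 genes with a mean of at least 50 CPM, those most like Hspa1a were Tifab (0.85), Ppfia4 (0.83), Ptpro (0.83), Rp2 (0.82) and Hfe (0.82). Most like Hspa5 were Rap2b (0.96), Pdia6 (0.92), Prdx1 (0.91), Calr (0.91) and Abhd12 (0.90), and among those most like Hsp90ab1 were Eny2 (0.98), Ppia (0.98), Selenow (0.98) and Fkbp8 (0.97). How far the neutrophils, low in many genes, weigh on these values was not tested.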

How the data were processed

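Libraries of CD45+ adrenal gland cells, 1 from female and 1 from male mice, were sequenced with a droplet 3′ kit. The deposited values are raw UMI counts per gene and barcode, which the authors made with Cell Ranger (4.0.0 per the file headers, build mm10 per the submitters' processing notes) and filtered for empty droplets with DropletUtils 1.4.3. The annotation release is not given in the sources used here. The lowest barcode held 500 UMIs.

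Barcodes with at least 200 genes and at most 15% mitochondrial UMIs were kept. The ceiling of 1.2% described in the study kept 327 female and 359 male barcodes if read as a percent of UMIs, which may not be its scale, so it was run as an alternative only. Gating took the place of clustering: cells needed 3 of 10 markers of a class and a lead of 2. Cells meeting several gates (248 female, 111 male), among them any mixed droplets, and cells meeting none (257 and 229) were left out, and no doublet caller was run. Subsets needed 3 of 8 markers.

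UMIs were summed per class and library and divided by the class total (CPM). Intervals are exact Poisson for CPM, Clopper-Pearson for shares and conditional binomial for ratios, at 95%. With 1 library per sex no test was run and no p-value is given. A ratio past 1.5-fold with at least 20 expected UMIs a side was called, and between classes in both libraries. The members, lists and rules were chosen with earlier results of these data known. All members are named, with up to 3 genes per list and comparison by the size of their ratio. Some items that these rules reach are not reported here. Python 3.11.15, numpy 2.4.6, scipy 1.17.1, pandas 2.3.3 and matplotlib 3.10.9 were used.

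Alternatives changed the mitochondrial ceiling, gate, scaling, weighting of cells, removal of the deepest cells, count filter and draw size. Those by depth range and without the top cell were added after seeing the data.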

Additional observations from a re-analysis of the deposited data

Results flagged for a closer look

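For 4 members the female-to-male ratio lay on opposite sides of 1 in different classes, each time with an interval that leaves out 1. The difference between classes was itself not tested. Hsph1 had a ratio of 1.56 in macrophages and 0.707 in NK cells. Hsp90aa1 had 1.30 in macrophages and 0.829 in B cells. Hspa8 had 1.86 in neutrophils but 0.815 in dendritic cells, 0.771 in B cells, 0.890 in T cells and 0.848 in NK cells. Hsp90ab1 had 1.22 in macrophages, 1.17 in T cells and 1.06 in NK cells but 0.861 in monocytes.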

How the results depend on the processing

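No paired analysis was possible because each sex had 1 library and no replicate numbers, and for the same reason no replicate could be left out. The 12 member ratios past 1.5-fold between the libraries became 4 under the 1.2% mitochondrial ceiling, 25 with no count filter and 2 with 100 expected UMIs a side. The 16 between classes became 5 under that ceiling and 6 with 100 expected UMIs. The 2 between macrophage subsets became 0 under that ceiling, and 1 with a 5% ceiling, with division by the median ratio and with 100 expected UMIs.

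Ratios that turned under the 1.2% ceiling were Hsph1 in macrophages (0.342), Dnajb1 in T cells (1.13) and NK cells (1.04), Hspe1 in endothelial cells (0.723), Hspa1a in macrophages over other cells (0.616 female, 0.558 male) and in T cells (1.24, female), each with fewer cells by construction. Under it several ratios over other cells moved by more than 1.5 times without turning. Among them were Hspa1b in B cells, NK cells and male macrophages, Hspa1a in NK cells and male T cells, and Hspa5 in T cells. So were Hspa5 in B cells and female neutrophils and Hspa8 in neutrophils and female B cells. Hspe1 in endothelial cells also turned at 5% (0.699), as a mean of per-cell CPM (0.781) and without the 5% deepest cells (0.654), where Hspd1 did too (0.905). Hspa8 in female neutrophils turned when divided by the median ratio (1.02). In cells of up to 2000 UMIs, chosen after seeing the data, Hsph1 in macrophages (0.940) and Dnajb1 in T cells (1.42) turned. For the other turns the cause was not tested. Depth limits Hspa1a and Hspa1b outside macrophages, and every member in neutrophils and endothelial cells.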
